A study of Arabidopsis thaliana with 9 samples.

Results

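The genes described here are 8 of the 33473 genes in a table of FPKM values (fragment numbers scaled by transcript length and by library size) from Arabidopsis thaliana shoots. They were chosen by function, as subunits of the SnRK1 kinase and as markers of sugar starvation, and with the FPKM values of these same samples already known. The subunits are KIN10 (AT3G01090), KIN11 (AT3G29160) and AKINBETA1 (AT5G21170). The markers are SEN1 (AT4G35770), AT2G20670, AT5G19120, AT4G36850 and BXL1 (AT5G49360). Because the choice used the values, each value below is a description and carries no test.

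All plants were of the strain Col-0, were 21 days old and had been kept under continuous light of 50 µmol m-2 s-1. The temperature was 23 °C during growth and 21 °C for the exposure, the same for all samples. High light of 1000 µmol m-2 s-1 was given for 0, 20 or 60 s, and whole pots were then frozen in liquid nitrogen. The plants at 0 s are the untreated control. There were 3 pools of at least 30 plants for each duration, and the deposited table holds 1 FPKM value per gene and duration, so the spread between pools is unknown and no difference below has a replicate check.

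SnRK1 is the plant counterpart of the yeast kinase SNF1 and of the animal kinase AMPK. It is built from a catalytic alpha subunit, a beta subunit that acts as scaffold and a gamma-type subunit, and it is known for turning metabolism from growth to the saving and recycling of carbon when sugar or energy runs short. Transcripts that accumulate in darkness or without sugar, and that sugar lowers, are used as readouts of this state, and several of them are switched on in leaf cells that are given extra KIN10.

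The 8 genes, chosen with their values known, are described by role. Both catalytic subunits stood at nearly the same level at 0, 20 and 60 s, AKINBETA1 was higher at each longer exposure, and the 5 starvation markers were 2.68-fold to 3.44-fold higher at 20 s than at 0 s. At 60 s the markers were 2.75-fold to 4.74-fold above 0 s. Every fold and log2 ratio given here is on the scale of FPKM + 1, which understates the difference of low genes. Of the 8 genes, 5 were at least 2-fold higher at 20 s than at 0 s, where 0.559% of all 13946 genes averaging 5 FPKM or more were. At 60 s, 5 of 8 were 2-fold above 0 s, and 0.538% of all genes were. At 60 s against 20 s the count was 0 of 8, beside 0.143% of all genes. SEN1 and AT4G36850, at 4.01 and 3.69 FPKM at 0 s, passed this minimum only through their values at 20 and 60 s. Since the choice of members used these comparisons, nothing is read from the counts.

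**Figure D1:**
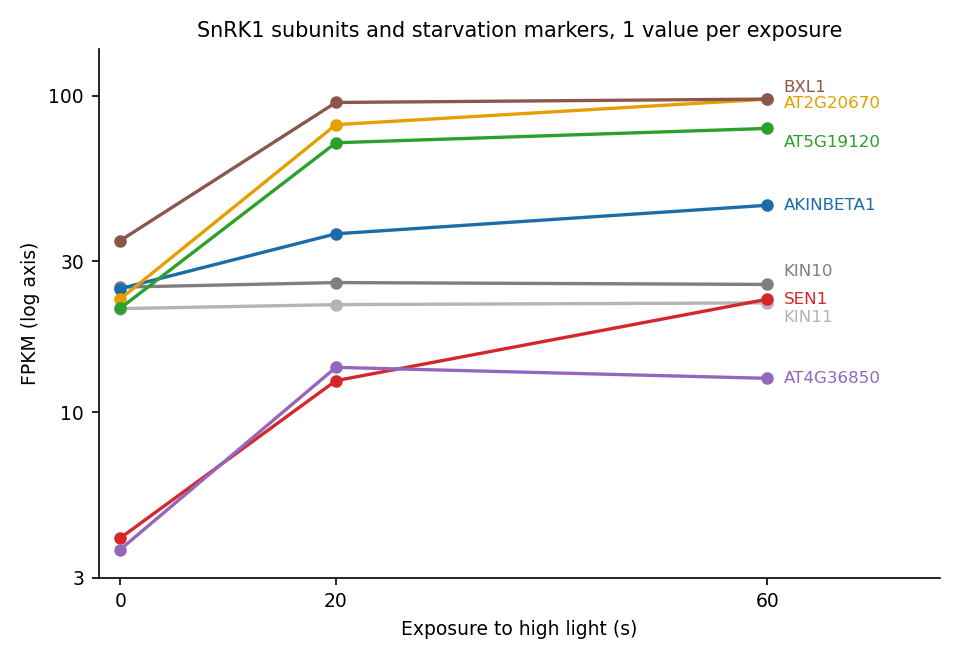
FPKM of the 8 genes (log axis) against the duration of high light in seconds, with 1 deposited value per point and no error. The 5 markers climb most between 0 and 20 s, SEN1 keeps climbing from 12.6 FPKM at 20 s to 22.7 FPKM at 60 s, and the lines of KIN10 and KIN11 are flat.

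The upstream sequences of 3 genes are shown first, because these are the members whose 250 bases before the annotated start held any of the searched motifs. They are read 5′ to 3′ on the gene's own strand from the RefSeq genome of build TAIR10.1. Capitals mark TATCCA or its reverse complement and, in AT5G19120, the G-box. TATCCA is known from rice as the core of a sugar response element in alpha-amylase promoters, and G-boxes are bound by bZIP and bHLH factors. AT2G20670 lies on the minus strand, with its window at chr2:8913748-8913997, and AT5G19120 and AKINBETA1 lie on the plus strand, with windows at chr5:6414238-6414487 and chr5:7205227-7205476.
AT2G20670: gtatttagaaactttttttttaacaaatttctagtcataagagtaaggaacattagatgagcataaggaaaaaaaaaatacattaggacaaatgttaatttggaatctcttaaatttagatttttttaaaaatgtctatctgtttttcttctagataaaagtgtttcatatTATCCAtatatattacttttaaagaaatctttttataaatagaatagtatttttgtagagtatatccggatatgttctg
AT5G19120: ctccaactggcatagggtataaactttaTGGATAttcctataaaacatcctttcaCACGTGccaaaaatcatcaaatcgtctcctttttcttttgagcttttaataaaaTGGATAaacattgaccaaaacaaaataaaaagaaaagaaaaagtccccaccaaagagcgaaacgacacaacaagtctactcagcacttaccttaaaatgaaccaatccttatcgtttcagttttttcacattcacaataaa
AKINBETA1: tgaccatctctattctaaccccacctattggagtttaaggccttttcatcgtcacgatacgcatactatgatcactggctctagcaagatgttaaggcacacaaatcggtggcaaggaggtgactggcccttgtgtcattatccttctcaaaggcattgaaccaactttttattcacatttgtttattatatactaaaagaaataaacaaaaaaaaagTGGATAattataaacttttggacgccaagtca

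TATCCA was present, on either strand, in 3 of the 8 windows and in 13.6% of 27431 windows of protein-coding genes, and 2 of these 3 genes were markers. In AT2G20670 it began 79 bases before the annotated start, and in AKINBETA1 its reverse complement began 32 bases before. AT5G19120 held the reverse complement 222 and 141 bases before its start, with the G-box between them at 195 bases. The G-box, CACGTG, was in 1 of 8 windows, against 6.49% of all. Neither the C-box GACGTC (2.26% of all windows), the evening element AAATATCT (4.79%) nor the telo-box AAACCCTA (4.49%) occurred in the 8. Over 1000 bases TATCCA was in 4 of 8 windows, now with SEN1, and in 43.8% of all, so over this longer window the share was close to the background. The letters of SEN1, AT4G36850, BXL1, KIN10 and KIN11 held no match within 250 bases, which says nothing about which factors bind there. Another annotated gene overlaps the 250-base window of AKINBETA1 (AT5G00430), of KIN10 (AT3G01100) and of SEN1 (AT4G35760).

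KIN10 and KIN11 encode the alpha subunits that carry the kinase activity. KIN10 (chromosome 3 from 31181 to 34597 in the deposited table, build TAIR9) stood at 24.8 FPKM at 0 s, 25.7 FPKM at 20 s and 25.3 FPKM at 60 s. KIN11 (chromosome 3 from 11128625 to 11132076) stood at 21.2, 21.9 and 22.1 FPKM at 0, 20 and 60 s. The deposited value of KIN10 was 1.17 times that of KIN11 before exposure and at 20 s and 1.14 times at 60 s, and with no spread between pools it is not known whether the levels of these genes differ. Against 0 s the log2 ratio of KIN10 was 0.046 after 20 s and 0.028 after 60 s, and that of KIN11 was 0.040 and 0.058. These are small enough that quantile normalization turned that of KIN10 at 60 s to -0.0082. KIN12, the third alpha gene, was listed at 0 at every exposure, so KIN10 and KIN11 made up the whole listed alpha level of 46.1, 47.5 and 47.5 FPKM.

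The beta subunit places the kinase in the cell and holds the complex together. AKINBETA1, which carries a site for N-myristoylation and a carbohydrate-binding module, stood at 24.6 FPKM at 0 s, 36.6 FPKM at 20 s and 45.0 FPKM at 60 s (chromosome 5 from 7205562 to 7208496). It was 1.47-fold higher at 20 s and 1.80-fold higher at 60 s than at 0 s, short of 2-fold in both. Among the 13946 genes, 1.91% had a higher ratio after 20 s and 0.731% after 60 s. AKINBETA2, the other beta gene with both features, did not share this, at 24.7, 22.0 and 22.9 FPKM. AKINBETA3, a short plant-specific form, stood at 17.8, 16.4 and 16.4 FPKM. AKINBETA1 and AKINBETA2 were thus level at 0 s, and at 60 s AKINBETA1 had 1.96 times the FPKM of AKINBETA2. As a share of the summed beta FPKM, AKINBETA1 made up 36.6% before exposure, 48.8% after 20 s and 53.4% after 60 s.

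One gamma-type gene had the same course as AKINBETA1. KING1, annotated as the regulatory subunit gamma, stood at 27.0, 35.3 and 42.6 FPKM, which is 1.29-fold and 1.55-fold above 0 s at 20 and 60 s. SNF4, the hybrid betagamma subunit of the complex, stood at 23.2, 22.7 and 23.0 FPKM. The ratio of KING1 to SNF4 was 1.17 at 0 s, 1.55 at 20 s and 1.85 at 60 s. GRIK1, an upstream kinase that phosphorylates the activation loop of KIN10 and KIN11, stood at 17.4, 14.6 and 15.0 FPKM. Of these 5 other subunit and upstream kinase genes averaging 5 FPKM or more, KING1 was the 1 that was higher at 20 s and at 60 s than at 0 s, and the other 4 were lower, by at most 0.24 on the log2 scale. Of all genes, 48.5% were higher at 20 s and 54.6% at 60 s. The middle 95% of all genes spanned log2 ratios of -0.29 to 0.49 (20 s) and -0.32 to 0.49 (60 s). AKINBETA1 lay above it at both exposures and KING1 at 60 s only, and the 4 lower genes lay inside it.

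**Figure D2:**
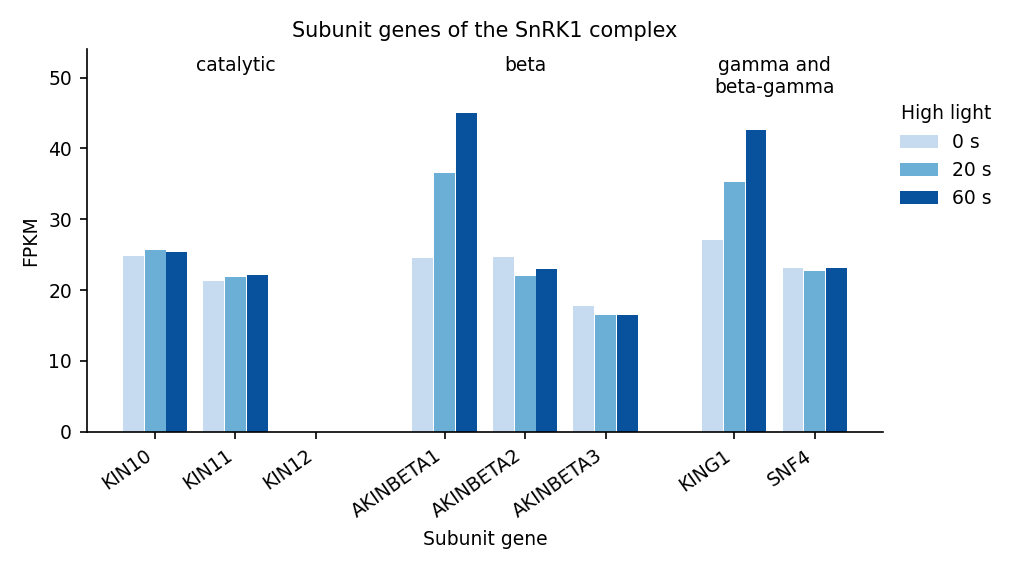
FPKM (linear axis from 0) of the genes for the catalytic, beta and gamma-type subunits of SnRK1, with 1 bar for each of 0, 20 and 60 s and no error. AKINBETA1 and KING1 step upward to 45.0 and 42.6 FPKM, the other expressed subunits stay between 16.4 and 25.7 FPKM, and KIN12 is listed at 0.

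Genes of proteins that work with or beside SnRK1 were mixed in direction. bZIP63, a transcription factor that KIN10 phosphorylates, stood at 31.0, 45.7 and 49.2 FPKM at 0, 20 and 60 s, 1.46-fold and 1.57-fold above 0 s, which is above the middle 95% of all genes at both exposures and slightly more than KING1. MARD1, an FCS-like zinc finger protein of a family that binds SnRK1, stood at 15.9 and 14.2 FPKM at 0 and 20 s and at 23.1 FPKM at 60 s, while FLZ6 of the same family stood at 263, 211 and 251 FPKM. MARD1 at 60 s, with a log2 ratio of 0.51, lay above the middle 95%, and FLZ6 at 20 s, with -0.32, lay below it. HXK1, a hexokinase and glucose sensor, was at 39.6, 36.0 and 35.5 FPKM, and PRL1, a nuclear WD40 protein that binds the alpha subunits, at 44.3, 44.3 and 42.4 FPKM. TOR and RAPTOR1, of the growth-promoting kinase complex that SnRK1 opposes, stood at 13.7, 13.7 and 15.4 FPKM and at 19.6, 20.5 and 23.6 FPKM. Of these 7 partners, all above the minimum mean, 3 were higher and 4 lower after 20 s than at 0 s (4 and 3 under median centring, 2 and 5 under quantile normalization), where 48.5% of all genes were higher. At 60 s against 0 s 4 were higher and 3 lower, where 54.6% of all genes were higher. None of the 7 was 2-fold apart in any of the 3 comparisons.

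SEN1, also called DIN1, encodes a small rhodanese-domain protein whose transcript accumulates in dark-treated and ageing leaves. It stood at 4.01 FPKM at 0 s, 12.6 FPKM at 20 s and 22.7 FPKM at 60 s (chromosome 4 from 16944941 to 16946192). The 20 s value lay between the other values. SEN1 was 2.71-fold higher at 20 s than at 0 s and 1.75-fold higher at 60 s than at 20 s, the largest step of the 8 genes in that last comparison, where 0.208% of all genes had a higher ratio. At 20 s it had covered 45.8% of its FPKM difference between 0 s and 60 s.

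AT2G20670 and AT5G19120 started at nearly the same level and ran close to each other. AT2G20670, annotated with the domain of unknown function DUF506 (chromosome 2 from 8911860 to 8913534), stood at 22.8, 80.9 and 97.4 FPKM. AT5G19120, annotated as an aspartyl protease family protein (chromosome 5 from 6414488 to 6415907), stood at 21.3, 70.9 and 78.7 FPKM. Their FPKM ratio was 1.07 at 0 s, 1.14 at 20 s and 1.24 at 60 s. At 20 s AT2G20670 had covered 77.9% and AT5G19120 86.4% of the difference between 0 s and 60 s.

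The last pair of markers differed little between 20 s and 60 s in the deposited values. AT4G36850, named in the annotation as a PQ-loop repeat transmembrane protein (chromosome 4 from 17353291 to 17355891), stood at 3.69, 13.9 and 12.8 FPKM, so that the 20 s value was the highest and the 60 s value 1.08-fold lower. BXL1, a secreted glycosidase that removes xylose and arabinose from cell wall polymers (chromosome 5 from 20011879 to 20016742), stood at 34.8, 95.1 and 97.5 FPKM, and at 20 s it had covered 96.2% of its difference between 0 s and 60 s. AT4G36850 and SEN1 were the lowest markers at 0 s, and at 60 s SEN1 had 1.78 times the FPKM of AT4G36850.

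In order of level at 0 s came BXL1, KIN10, AKINBETA1, AT2G20670, AT5G19120, KIN11, SEN1 and AT4G36850. The 5 genes from KIN10 to KIN11 lay between 24.8 and 21.2 FPKM, and with no spread between pools their order cannot be told apart. At 60 s the order was BXL1, AT2G20670, AT5G19120, AKINBETA1, KIN10, SEN1, KIN11 and AT4G36850, with BXL1 and AT2G20670 at 97.5 and 97.4 FPKM.

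**Figure D3:**
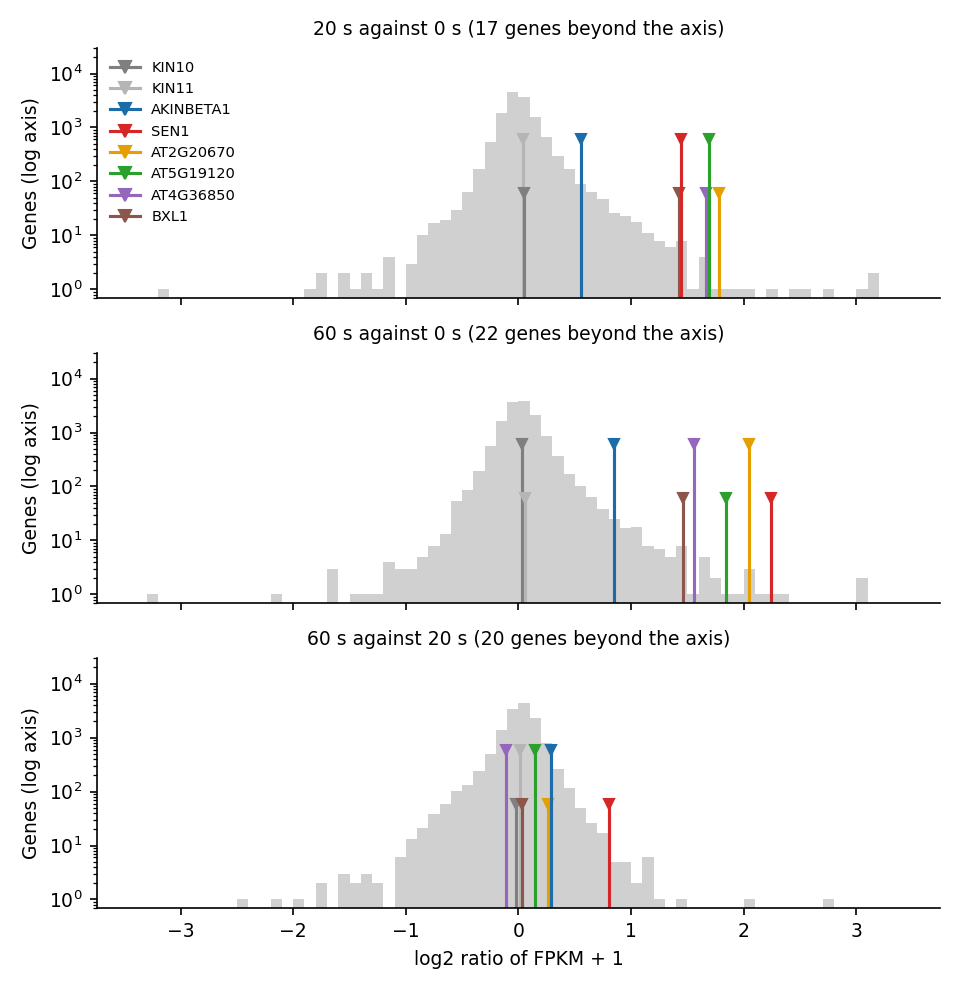
Distribution of log2 ratios of FPKM + 1 over the 13946 genes averaging 5 FPKM or more (grey, number of genes on a log axis, bins of 0.1) in the 3 comparisons, with coloured markers at the 8 genes; marker height has no meaning, and the upper and middle panels share the 0 s values. In those panels the 5 starvation markers lie right of 1.42, AKINBETA1 at 0.56 and 0.85, and KIN10 and KIN11 at the centre, whereas against 20 s SEN1 stands apart at 0.81.

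Other transcripts were taken from a list of genes known as dark-inducible or starvation-induced, and whether the plants here were short of sugar was not tested. Of 29 genes, 28 were in the table and 22 reached a mean of 5 FPKM. All 22 were higher at 20 s than at 0 s, beside 48.5% of all genes. Of them 8 were at least 2-fold higher, beside 0.559% of all genes, and the median log2 ratio was 0.74 against -0.0045 for all genes. At 60 s against 0 s all 22 were higher, beside 54.6% of all genes. Here 12 were at least 2-fold higher, beside 0.538% of all genes, and the median was 1.03 against 0.015. Under median centring or quantile normalization 21 of the 22 were higher at 60 s, and under centring 11 were at 2-fold. The minimum mean includes the exposed values, and ASN1, at 4.15 FPKM at 0 s, passed only through them. DIN9, below the minimum at 2.16, 1.94 and 2.36 FPKM, was lower at 20 s than at 0 s. The list was drawn up with earlier results of these data known, and both comparisons share the 0 s values, so the counts are not independent support.

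AT3G15450, a homologue of aluminium-induced proteins, had the highest ratio of the list at both exposures. It stood at 94.6, 359 and 423 FPKM, though its locus overlaps another listed gene. CHYR1 (AT5G22920), a RING-type zinc finger protein, stood at 30.0, 79.2 and 83.6 FPKM, and BT2, a BTB and TAZ domain protein, at 87.1, 208 and 246 FPKM. These followed the early course of BXL1, with most of the difference present at 20 s. A later course was seen in the dormancy-associated DRM1 at 73.2, 129 and 189 FPKM and DRM2 at 204, 264 and 412 FPKM, and in PP2-A13, a phloem protein homologue, at 13.8, 19.6 and 31.5 FPKM. TPS8, a class II trehalose phosphate synthase, stood at 30.3, 60.3 and 63.8 FPKM. The remaining genes at 2-fold were ASN1, KFB20, AT4G27450, TPS11 and DIN10 at 60 s, between 2.63-fold and 3.90-fold above 0 s.

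The size of the difference varied widely within the list. XTH24, a wall enzyme also known as SEN4, was 2.15-fold higher at 20 s, and at 60 s it stood at 62.6 FPKM, against 46.0 FPKM at 0 s. Genes for breakdown of branched-chain amino acids differed by less than 1.5-fold, with MCCA at 9.83, 13.3 and 15.2 FPKM, DIN4 at 15.1, 17.2 and 18.8 FPKM, IVD at 7.99, 8.13 and 8.75 FPKM and AT1G21400 at 10.3, 10.7 and 10.3 FPKM. Of these, MCCA at 60 s, with a log2 ratio of 0.58, still lay above the middle 95% of all genes. BAM9, of the beta-amylase family, stood at 66.1, 70.9 and 68.0 FPKM. DIN2, DIN9, DIN11, THA1, BCAT2 and GDPD2 had means under 5 FPKM, and DIN2, a beta-glucosidase strongly induced in long darkness, reached 0.414 FPKM at most.

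**Figure D4:**
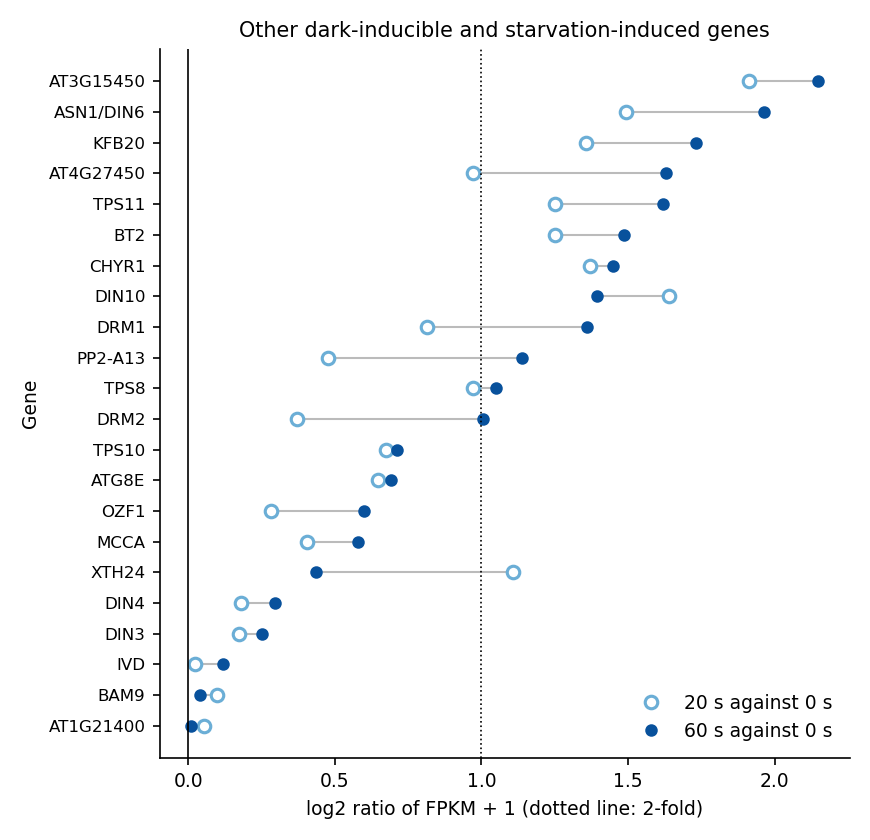
Log2 ratios of FPKM + 1 at 20 s (open circles) and 60 s (filled circles) against 0 s for the 22 other starvation-induced genes that passed the minimum mean, ordered by the 60 s ratio, with a dotted line at 2-fold. Filled circles lie right of the line for 12 genes, and XTH24 is the gene whose open circle alone is beyond it.

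Genes that sugar is known to raise were described for contrast. All 6 that reached the minimum mean were above their 0 s value at 20 s, where 48.5% of all genes were, and their median log2 ratio was 0.29. At 60 s 4 were higher and 2 lower (3 and 3 under either rescaling), where 54.6% of all genes were higher, and the median was 0.14. None was 2-fold apart. The nitrate reductases NIA1 and NIA2 stood at 43.1, 78.6 and 70.9 FPKM and at 476, 594 and 607 FPKM. Of flavonoid and anthocyanin synthesis, DFR stood at 19.7, 33.1 and 24.0 FPKM, CHS at 147, 177 and 148 FPKM and F3H at 30.0, 36.4 and 28.8 FPKM, so all 3 were highest at 20 s. APL3, a subunit of the starch-synthesis enzyme ADP-glucose pyrophosphorylase, stood at 17.8, 18.9 and 17.2 FPKM. NIA1 at 20 and 60 s, with log2 ratios of 0.85 and 0.70, and DFR at 20 s, with 0.72, lay above the middle 95% of all genes.

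SEN1 is named for senescence, so senescence genes were set beside it. SAG12, a protease gene used as marker of late senescence, was listed at 0 at every exposure. SAG13 stood at 9.83, 19.4 and 10.3 FPKM and SAG21 at 90.8, 139 and 89.4 FPKM, so both were highest at 20 s and near the 0 s value at 60 s, unlike SEN1. SGR1, which acts in chlorophyll breakdown, stood at 14.3, 13.9 and 15.7 FPKM, and SAG101 at 14.3, 15.2 and 13.6 FPKM. The 5 senescence genes above the minimum mean had median log2 ratios against 0 s of 0.40 (20 s) and 0.046 (60 s), beside 1.44 and 2.25 for SEN1.

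Relatives of the markers mostly stayed behind them. In the BXL family BXL2 came closest, at 7.32, 15.5 and 13.6 FPKM, and BXL1 had 4.75 times its FPKM at 0 s and 7.15 times at 60 s. BXL4 stood at 33.8, 53.2 and 35.9 FPKM, level with BXL1 at 0 s but far below it at 60 s, and BXL6 and BXL7 were within 1.07-fold of their 0 s values. Of the sulfurtransferase relatives of SEN1, STR16 stood at 188, 202 and 225 FPKM and STR14 at 164, 148 and 160 FPKM. The neighbours of AT5G19120 on chromosome 5, AT5G19110 and AT5G19100, did not exceed 1.45 FPKM, and its relatives AT1G03220 (37.9, 50.3 and 51.5 FPKM) and AT1G03230 (20.2, 23.4 and 23.7 FPKM) were at most 1.35-fold higher. The related PQ-loop gene AT2G41050 stood at 3.91, 3.15 and 3.86 FPKM, whereas AT4G36850 was 3.17-fold higher after 20 s.

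The DUF506 relatives of AT2G20670 were mixed in direction, and they too stayed below it. AT4G32480 stood at 4.09, 12.96 and 8.92 FPKM and AT3G07350 at 2.17, 6.10 and 7.93 FPKM, which is 2.74-fold and 2.24-fold above 0 s at 20 s, beside 3.44-fold for AT2G20670. AT2G38820 stood at 7.34, 9.84 and 12.7 FPKM. AT1G12030 went the other way, at 9.41, 8.18 and 7.21 FPKM, and AT3G22970 stood at 64.4, 61.4 and 75.8 FPKM. Of the 10 relatives in the table, 5 reached a mean of 5 FPKM. AT4G32480 and AT3G07350 did so only through their values at 20 and 60 s. AT1G62420, at 5.26, 3.66 and 3.82 FPKM, and AT2G39650, at 4.91, 4.61 and 4.05 FPKM, did not. Both of the latter were highest at 0 s.

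**Figure D5:**
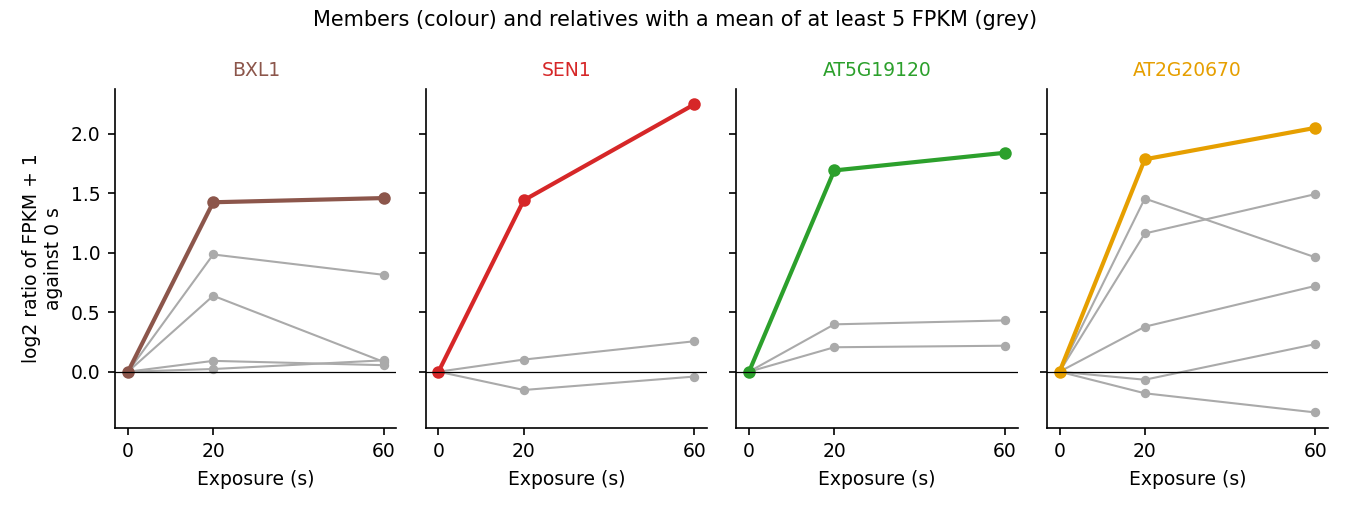
Log2 ratio of FPKM + 1 against 0 s at 0, 20 and 60 s for BXL1, SEN1, AT5G19120 and AT2G20670 (colour) and for relatives above the minimum mean of 5 FPKM (grey), 1 deposited value per point. Each coloured line is above its grey lines, and the smallest gap at 20 s is between AT2G20670 at 1.78 and AT4G32480 at 1.45.

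The genes most like each marker were sought by the Euclidean distance in the 2 log2 ratios against 0 s, over 11521 protein-coding genes whose locus overlapped no other listed gene. Nearest to SEN1 was ASN1, the dark-inducible asparagine synthetase, at a distance of 0.29, and then AT2G20670 and AT5G19120. AT2G20670 and AT5G19120 were each other's nearest gene among those searched, at 0.23. AT3G15450 was left out of every search here because its locus overlaps another listed gene. Its log2 ratios of 1.91 and 2.15 are close to those of AT2G20670, 1.78 and 2.05, beside 1.69 and 1.84 for AT5G19120. AT4G36850 was nearest to DIN10 at 0.17, then to RD26, a NAC factor, at 0.21 and to BXL1 at 0.26. BXL1 lay 0.053 from CHYR1 and 0.18 from BT2. The search around the median of the 5 markers left the markers in, over 11522 genes. Of the 10 nearest genes, 5 were these markers, which set that median, so nothing is read from their place. The others were ASN1, RD26, KFB20, DIN10 and TPS11. The distance rests on 3 values per gene and says nothing of shared control.

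Several measures outside these lists were set beside these differences. Clock genes time several starvation transcripts in daily cycles. Of 6 such genes, 5 were lower and 1 higher at 20 s than at 0 s (6 lower under quantile normalization). At 20 s 48.5% of all genes were higher, and the median log2 ratio of the 6 was -0.12. At 60 s against 20 s the clock genes had log2 ratios of 0.093 to 0.26, beside a median of 0.023 for all genes. These lay inside the middle 95% of all genes in that comparison, -0.44 to 0.35. The share of all genes higher at 60 s than at 20 s was not counted, so nothing is read from the direction. PRR5, at 10.5, 8.24 and 9.45 FPKM, had a log2 ratio of -0.32 at 20 s, below the middle 95% of all genes. CCA1 stood at 65.0, 55.7 and 65.0 FPKM, LHY at 72.0, 66.5 and 71.0 FPKM and ELF4 at 43.3, 39.4 and 42.3 FPKM. GI stood at 6.64, 6.29 and 7.71 FPKM, and TOC1 at 33.0, 33.4 and 35.7 FPKM was the 1 that was higher at 20 s. The part of the clock genes in the differences was not tested. The 6 reference genes (PP2AA3, UBC9, TIP41, SAND, GAPC2 and UBC21) had log2 ratios between -0.088 and 0.12 against 0 s. The 5 shoot markers, among them RBCS1A, summed to between 19748 and 20628 FPKM. Of 6 root markers only SHR reached a mean of 5 FPKM, and all 6 summed to at most 10.2 FPKM; the 4 floral markers summed to at most 0.877 FPKM. The summed FPKM of 4 ribosomal RNA genes was 136 at 0 s, 1504 at 20 s and 570 at 60 s, and its part in these differences was not tested. In bulk shoots, fewer cells that express a gene and less RNA per cell cannot be told apart.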

How the data were processed

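RNA of 9 shoot samples, 3 pools for each of 0, 20 and 60 s of high light, was sequenced by the authors. The deposited file holds FPKM values, 1 per gene and exposure, and per the submitters' processing notes TopHat, Bowtie and Cufflinks were used with the TAIR9 build. Not given in the sources used here are versions, how pools were combined, strand handling and the treatment of reads that match several gene copies. The number of reads is unknown, so no counting interval is given. Columns were matched to exposures by name, and 0 were left unmapped.

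Log2 ratios were computed as log2((x + 1)/(y + 1)), a pseudocount of 1 FPKM, for the 13946 genes that averaged 5 FPKM or more, a filter that all 8 members passed. The average is over all exposures, so the filter favours genes that are high after exposure, and SEN1 and AT4G36850 were below 5 FPKM at 0 s. All 8 also passed the restricted filter (protein-coding, above 0 throughout, a locus of 300 bp or more that no other listed gene overlaps). With 1 value per exposure no test was possible; the 2-fold limit describes the table and is not a call of change. The ratio step was tested on simulated data. The members and all gene lists were chosen with earlier results of these data known. Genes were named by a written rule: the members, the 2 highest and 2 lowest of each list, those at 2-fold, and the nearest genes; relatives, partners and genes given to show a lack of difference were added after their values were seen.

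Gene names, products and upstream sequences came from RefSeq for TAIR10.1, which matched 32690 of 33473 identifiers, and upstream windows were taken before the 5′-most annotated gene end. Coordinates of genes are those of the deposited table with 1 added to the start, because 8829 of 12235 genes that share the reference's end had its start after that shift. GRIK2, bZIP1 and AT4G14620 were on the lists, but their identifiers were not found in the deposited table, so they were not analysed here. Alternatives were other pseudocounts, minimum levels, scalings and limits and the restricted filter. The software was numpy 2.4.6, pandas 2.3.3 and matplotlib 3.10.9 under Python 3.11.15.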

Additional observations from a re-analysis of the deposited data

How the results depend on the processing

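The log2 ratios of the 8 genes kept their side of the 2-fold limit under each of the 7 alternatives (pseudocounts of 0.1 and 0 FPKM, minimum means of 1 and 0 FPKM, median centring, quantile normalization and the restricted set). The minimum means and the restricted set only change which other genes are kept, so they could not alter these ratios. SEN1 ranged from 4.67-fold to 5.68-fold at 60 s against 0 s, and BXL1 at 20 s against 0 s from 2.64-fold to 2.73-fold. KIN10 at 60 s against 0 s turned to -0.0082 (log2) under quantile normalization and KIN11 at 60 s against 20 s to -0.0048 under median centring, neither of them near the limit. At a 1.5-fold limit 6 members passed at 60 s against 0 s, now with AKINBETA1, and 1 member, SEN1, at 60 s against 20 s.

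The number of all genes at least 2-fold higher at 20 s against 0 s, 78, became 122 with no minimum mean, 50 in the restricted set and 249 at 1.5-fold. At 60 s against 0 s, 75 became 49 in the restricted set and 235 at 1.5-fold. At 60 s against 20 s, 20 became 12 with no pseudocount, 35 with a minimum of 1 FPKM, 42 with none, 5 in the restricted set and 76 at 1.5-fold. No paired analysis was possible because the table holds no values for single pools; for the same reason leaving out a pool was not run.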

Other observations

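ORE1, a NAC factor that promotes leaf ageing and was chosen here after its values were seen, stood at 0.637 FPKM at 0 s, 1.07 FPKM at 20 s and 3.22 FPKM at 60 s. Its mean was under the 5 FPKM minimum, so it was in none of the counts above. Like SEN1 it was higher at 60 s than at 20 s, whereas SAG13 and SAG21 were lower.

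The listed subunits of SnRK1 summed to 46.1, 47.5 and 47.5 FPKM for the alpha genes, 67.1, 75.1 and 84.4 FPKM for the beta genes, and 50.2, 58.0 and 65.7 FPKM for KING1 with SNF4. In the beta sum, AKINBETA2 and AKINBETA3 were below their 0 s values at both exposures, so AKINBETA1 alone accounts for the higher sum. In the sum of KING1 and SNF4, KING1 does so. RNA levels do not give subunit protein or kinase activity, which were not measured.

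The 8 genes shared little in structure in the TAIR10.1 annotation. Their longest transcripts were between 1160 and 2890 bases long with 1 to 11 exons, from the single exon of AT5G19120 to 11 exons in KIN10 and in KIN11.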
